A study of Mus musculus with 17 samples.

Results

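A set of 10 genes of newly postmitotic and migrating granule neurons was followed across the cerebella of mice at postnatal day 3, out of 31438 genes measured by RNA sequencing. Transcripts were summed to genes in both deposited count tables. The 10 genes were listed by their known place in granule neuron development, but with earlier results of these data known. They were the basic helix-loop-helix (bHLH) transcription factor genes Neurod1, Neurod2, Nhlh1 and Nhlh2, the nuclear factor I genes Nfia and Nfib, the surface protein genes Cntn2, Astn1 and Unc5c, and Rbfox3. All 10 passed the filter on low counts in every comparison.

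All mice carried Math1-Cre, whose recombinase is made under control sequences of Math1 (Atoh1) in granule neuron progenitors and related cells of the rhombic lip, and were of strain C57BL/6. In the Bax and Bak background, 5 Atr-deleted samples carried Atr-loxP/loxP together with Bax-loxP/loxP and Bak--/-, and 4 controls carried Bax-loxP/loxP and Bak--/- without floxed Atr. In the p53 background, 5 Atr-deleted samples carried Atr-loxP/loxP together with p53-loxP/loxP, and 3 controls carried p53-loxP/loxP alone. The controls of each background therefore shared its deletions, and no group without Cre was among the samples. Cells outside the Cre lineage keep the floxed genes, and the RNA came from whole cerebellum after removal of the meninges. In such bulk RNA, fewer cells of a type and less RNA per cell cannot be told apart.

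Depth was 42987953 to 100659645 estimated counts in 16 libraries. Replicate 3 of the Atr-deleted p53 group held 13601 counts with 2 identical lane columns and was left out, which leaves 4 libraries in that group. Replicate 2 of the same group stood apart, with 9.02% of its counts in mitochondrially encoded genes against 1.81% to 4.35% in the other 15. The log2 fold changes of the Atr effect in the p53 background are therefore given with and without it. Other results of that group include it, save where each library was left out in turn. The sample names of the 5 Atr-deleted libraries of the Bax and Bak background form a number series of their own, and those of their controls form a pair of others, one for replicates 1 and 2 and another for replicates 3 and 4. There, the genotype cannot be told apart from the number series. Atr itself, which was summed over whole genes, was at 40.0 ± 3.07 CPM (SD, n = 5; CPM is counts per 1000000, scaled by TMM) in the Atr-deleted and 43.4 ± 3.99 CPM (n = 4) in the control libraries without Bax and Bak, and at 37.1 ± 2.83 (n = 4) and 37.0 ± 1.11 CPM (n = 3) in the p53 background, so this level does not check the Atr genotype labels. The background labels were met by Bak1, the gene of Bak. Its means were 0.435 CPM in the Atr-deleted and 0.365 CPM in the control libraries of the Bax and Bak background. In the p53 background they were 38.35 and 39.65 CPM. Trp53 means were 69.5 and 68.8 CPM in the Bax and Bak background and 38.5 and 37.6 CPM in the p53 background. The labels name separate samples without saying whether they are separate mice, so p-values reflect only how far these samples spread, and that spread may be technical. The granule lineage genes Zic1, Pax6 and Barhl1 and the Purkinje cell genes Calb1 and Pcp2 were detected in all 16 libraries. Detection above 0 is a weak check of the tissue label at this depth. Among all marker lists used here, those of other cell types included, only Otp was at 0 in any library.

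Granule neurons arise in the external granule layer, where progenitors divide in response to Sonic hedgehog under the bHLH factor Atoh1. Cells that leave the cycle switch on NeuroD and NHLH factors and the adhesion protein contactin 2 (Cntn2, also called TAG-1), extend parallel fibres in the inner part of that layer, and then migrate inwards along Bergmann glia to the internal granule layer. Astrotactin (Astn1) takes part in that migration along glia, Unc5c is a netrin receptor that guides cells of the rhombic lip, and NFI factors act in the later steps of granule neuron maturation, where Cntn2 is among their known targets. Rbfox3 encodes the splicing regulator known as NeuN.

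Upstream sequences are shown for the 4 bHLH genes, which bind E-boxes, and for Astn1, the only gene that rose, because E-boxes are the sites that NeuroD and NHLH proteins recognise. They come from RefSeq (GRCm38.p6) and cover the 250 bases before the RefSeq start, less any base that GENCODE annotates as transcribed in the gene. They run 5′ to 3′ on the gene's strand, and capitals mark CAGATG, a NeuroD-type E-box, or CAGCTG, searched on both strands.
Neurod1 chr2:79456752-79456886 (minus strand, 135 bases): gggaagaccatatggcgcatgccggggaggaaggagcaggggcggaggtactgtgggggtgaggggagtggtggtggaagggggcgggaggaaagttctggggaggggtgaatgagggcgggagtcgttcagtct
Neurod2 chr11:98329649-98329895 (minus strand, 247 bases): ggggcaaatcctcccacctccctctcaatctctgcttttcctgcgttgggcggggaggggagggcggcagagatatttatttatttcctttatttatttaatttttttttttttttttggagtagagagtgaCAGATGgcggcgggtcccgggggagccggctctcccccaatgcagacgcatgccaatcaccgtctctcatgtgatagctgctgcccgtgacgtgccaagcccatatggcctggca
Nhlh1 chr1:172057597-172057846 (minus strand, 250 bases): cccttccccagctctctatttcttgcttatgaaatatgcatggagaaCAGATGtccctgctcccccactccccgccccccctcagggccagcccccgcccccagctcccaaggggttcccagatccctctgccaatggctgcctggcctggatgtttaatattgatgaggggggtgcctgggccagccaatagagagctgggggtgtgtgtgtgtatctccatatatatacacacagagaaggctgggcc
Nhlh2 chr3:102009895-102010075 (plus strand, 181 bases): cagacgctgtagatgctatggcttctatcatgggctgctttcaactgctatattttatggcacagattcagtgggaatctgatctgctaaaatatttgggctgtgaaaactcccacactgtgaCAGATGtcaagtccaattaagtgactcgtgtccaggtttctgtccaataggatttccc
Astn1 chr1:158362054-158362272 (plus strand, 219 bases): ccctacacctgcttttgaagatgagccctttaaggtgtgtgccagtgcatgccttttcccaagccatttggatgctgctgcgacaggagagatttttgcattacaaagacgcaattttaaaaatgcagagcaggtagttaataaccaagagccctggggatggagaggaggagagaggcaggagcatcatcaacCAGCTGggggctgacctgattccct
CAGATG stood 118 to 113 bases before the start of Neurod2, 203 to 198 bases before that of Nhlh1 and 127 to 122 bases before that of Nhlh2. Nfia held it on the other strand, 241 to 236 bases before its RefSeq start. That window (chr4:97581693-97581942) lies far upstream of the Nfia transcripts counted here, which begin at 97772734 or later. Thus 4 of the 9 members with an entry held CAGATG, Nfia only in that distant window, against 14.4% of all 32851 windows of 250 bases. CAGCTG was in the window of Astn1 alone, 56 to 51 bases before its start, against 13% of all windows. Neither hexamer was in the window of Neurod1. The general E-box form CANNTG was in that window, as in those of 8 of the 9 members and 66.2% of all windows. These are matches of letters, which show neither binding nor a cause of any difference below.

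**Figure D1:**
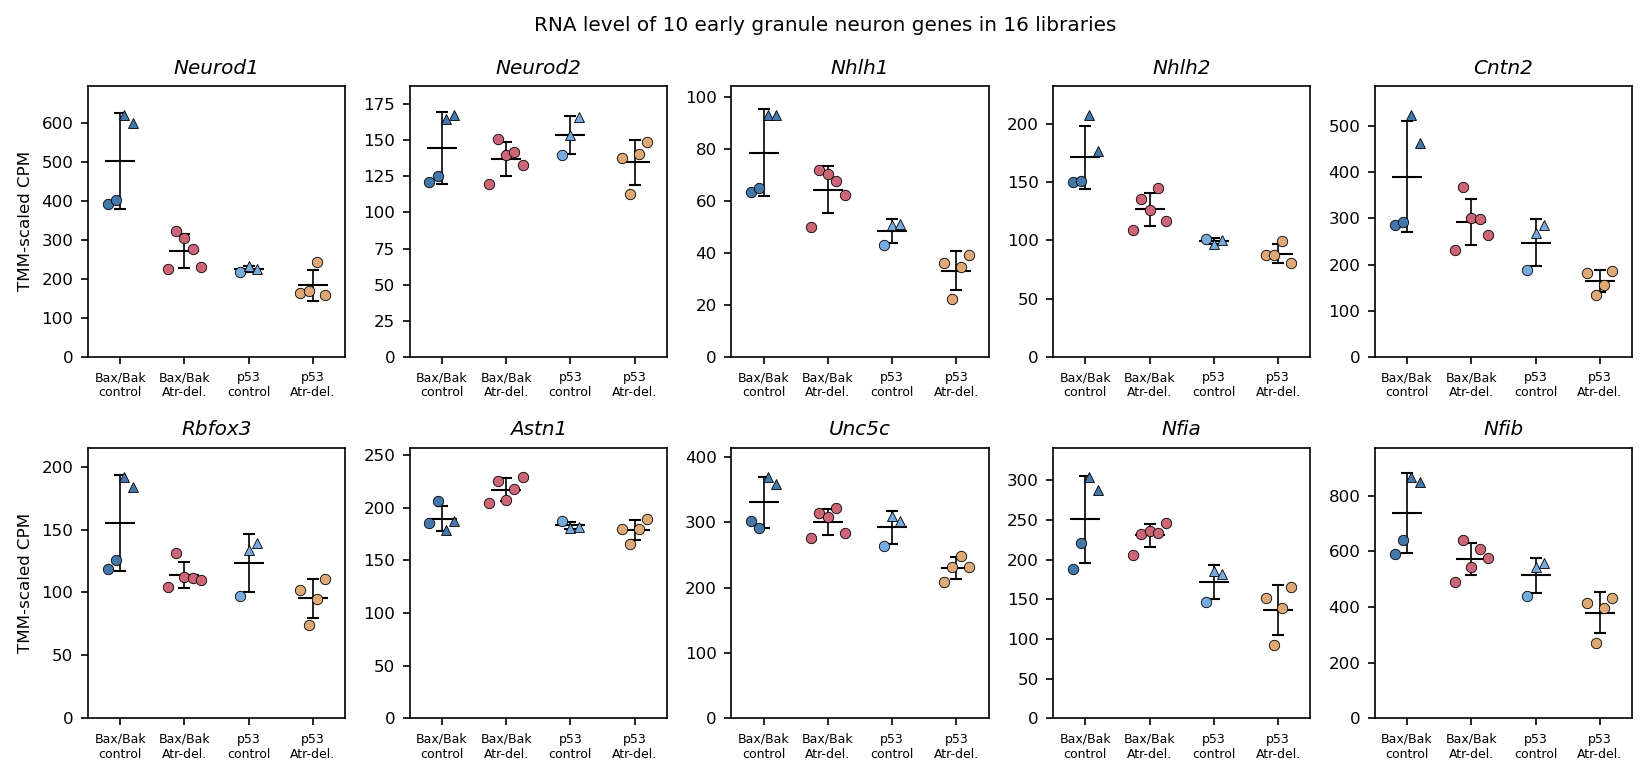
TMM-scaled CPM (y axis, linear from 0) of each of the 10 genes in 16 libraries of 4 groups (x axis), with horizontal bars and whiskers for the group mean and SD. Triangles mark control replicates 3 and 4 of the Bax and Bak background and control replicates 2 and 3 of the p53 background, whose sample numbers form a separate series from those of the other controls. Neurod1 in the 5 libraries with Atr, Bax and Bak deleted lies between 226 and 322 CPM, below all 4 controls, while Astn1 stays between 166 and 229.7 CPM in all 16.

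The first comparison asked how these genes differed with Atr deletion where Bax and Bak, which permeabilise mitochondria in apoptosis, were removed. Neurod1 and Nhlh2, both bHLH factors of young neurons, were lower in every Atr-deleted library than in every control. Nfib and Rbfox3 also fell, Astn1 rose, and Neurod2, Nhlh1, Cntn2, Unc5c and Nfia did not pass the test. At an adjusted p of 0.05 over all genes (edgeR quasi-likelihood, Benjamini-Hochberg), 5 of 10 genes were called, 1 higher and 4 lower. Of all 17405 genes tested 44.5% were called, so this share of the members lay near the background. The median log2 fold change was -0.31 over the members and 0.04 over all genes tested. Only 2 of the 10 had groups that did not overlap, both lower, against 21.1% of all genes that were lower without overlap.

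Neurod1 (chromosome 2, 79452521 to 79456751, GRCm38, minus strand), a bHLH activator of granule neuron differentiation and survival, was at 393, 402, 621 and 599.8 CPM in control replicates 1 to 4. It was at 226, 322, 306, 276 and 230.3 CPM in Atr-deleted replicates 1 to 5. The highest Atr-deleted library stood below the lowest control, and controls 3 and 4 stood well above controls 1 and 2. The means were 272 ± 43.5 (SD, n = 5) against 504 ± 123 CPM (n = 4). In log2 fold change this is -0.87 ± 0.17 (with its SE; adjusted p by edgeR = 0.00325). Among all genes, the size of this change was above that of 92.2%. With each library left out in turn the log2 fold change was -1.02 to -0.76, past the threshold each time. Of the 31-base words of Neurod1, 11.2% also occur in transcripts of other genes, mainly the overlapping Cerkl, which was at group means of only 3.16 to 4.59 CPM. The words of the other 9 members are shared for at most 1.09%.

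Nhlh2 (chromosome 3, 102010076 to 102015492, plus strand), a bHLH factor made by neurons soon after they leave the cycle, was at 150.3, 151, 208 and 176 CPM in the controls and 109, 136, 126, 145 and 116 CPM with Atr deleted. These groups did not overlap either, though the highest Atr-deleted library, replicate 4, was close to controls 1 and 2. The log2 fold change was -0.42 ± 0.11 (with its SE; adjusted p by edgeR = 0.0109). Its relative Nhlh1 (chromosome 1, 172052292 to 172057573, minus strand) was at 63.5, 65.2, 93.2 and 93.1 CPM in the controls and 49.9, 72.0, 70.5, 67.6 and 62.5 CPM with Atr deleted. There the Atr-deleted libraries lay at or around controls 1 and 2 and below controls 3 and 4. Its log2 fold change of -0.27 ± 0.15 did not pass the test (edgeR adjusted p = 0.177). Neurod2 (chromosome 11, 98325415 to 98329648, minus strand), a relative of Neurod1 in more mature neurons, was at 121, 126, 165 and 168 CPM in the controls and 119, 151, 140.0, 142 and 133 CPM with Atr deleted, and its groups overlapped. Its log2 fold change was -0.06 ± 0.11 (edgeR adjusted p = 0.669).

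Of the nuclear factor I genes, which are also made by astrocytes and their precursors, Nfib was called and Nfia was not. Whether their changes differed from each other was not tested. Nfib (chromosome 4, 82290173 to 82705750, minus strand) was at 590.2, 640.4, 869 and 850.5 CPM in the controls and 491, 642, 543, 610.0 and 578 CPM with Atr deleted. The Atr-deleted libraries overlapped controls 1 and 2 and lay below controls 3 and 4. Nfib fell by 0.35 on the log2 scale (with an SE of 0.12; adjusted p by edgeR = 0.0437). That call was lost without control replicate 3 or 4 and without Atr-deleted replicate 1, 3, 4 or 5, with edgeR adjusted p-values of up to 0.124, and in 1 fit over all 16 libraries (-0.36, edgeR adjusted p = 0.0567). Nfia (chromosome 4, 97772734 to 98118874, plus strand) was at 188, 221, 305 and 288 CPM in the controls and 206, 232, 236, 233 and 246 CPM with Atr deleted, where all 5 libraries lay between the lowest and the highest control. Its log2 fold change was -0.10 ± 0.13 (edgeR adjusted p = 0.552).

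Of the surface proteins, Cntn2 (chromosome 1, 132509427 to 132543256, minus strand) was at 285, 291, 524 and 463 CPM in the controls and 232, 368, 301, 298 and 264 CPM with Atr deleted. The spread within each group covered the difference, and the log2 fold change of -0.40 ± 0.21 did not pass the test (edgeR adjusted p = 0.159). Unc5c (chromosome 3, 141465216 to 141834924, plus strand) was at 302, 292, 370.2 and 358 CPM against 276, 315, 308, 322 and 283 CPM with Atr deleted. Its groups overlapped too (-0.12 ± 0.08, edgeR adjusted p = 0.236). Astn1 (chromosome 1, 158362273 to 158691781, plus strand) was at 186, 206, 179 and 188 CPM in the controls and 205, 226, 207, 218 and 229.7 CPM with Atr deleted. Here 4 of the 5 Atr-deleted libraries were above the highest control, replicate 2, and the remaining library was just below it. Astn1 rose by 0.21 (with an SE of 0.05; adjusted p by edgeR = 0.0077), a change larger than that of only 44.5% of all genes.

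Rbfox3 (chromosome 11, 118489762 to 118911597, minus strand), found in most neurons but not in Purkinje cells, was at 119, 126, 192 and 184 CPM in the controls and 104, 132, 112, 112 and 109.7 CPM with Atr deleted. As with Nfib, the Atr-deleted values reached those of controls 1 and 2 and stayed below controls 3 and 4. Rbfox3 fell by 0.43 on the log2 scale (with an SE of 0.15; adjusted p by edgeR = 0.0437). The call was lost on leaving out the same 6 libraries as for Nfib (edgeR adjusted p up to 0.12) and without the filter on low counts (0.0706).

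Which pair of controls was used mattered for most of these genes. Controls 1 and 2 differ from controls 3 and 4 in number series and also in depth. Depth was 42987953 and 45241073 estimated counts in controls 1 and 2, against 73308608 and 100659645 in controls 3 and 4. Number series and depth cannot be told apart here. The mean of controls 3 and 4 was above that of controls 1 and 2 by 1.71-fold for Cntn2, 1.54-fold for Neurod1 and 1.53-fold for Rbfox3. For Nfia, Nhlh1, Nfib, Neurod2, Nhlh2 and Unc5c the ratio was 1.23 to 1.45, and only for Astn1 was it below 1, at 0.934. Against controls 1 and 2 alone, where 41.6% of all 17663 genes were called, Neurod1 was the only member called, with a log2 fold change of -0.53 (edgeR adjusted p = 0.0186). Nhlh2 was then at -0.23 (edgeR adjusted p = 0.0851), Rbfox3 at -0.09 (0.412), Nfib at -0.09 (0.495) and Astn1 at 0.16 (0.0698). Cntn2 (0.04), Nhlh1 (0.02), Unc5c (0.03), Neurod2 (0.17) and Nfia (0.19) changed sign, without passing the test. Against controls 3 and 4 alone, where 44.9% of all 17939 genes were called, all 10 members were called, Astn1 higher (0.22) and 9 lower, from -0.31 for Unc5c to -0.78 for Cntn2 and -1.20 for Neurod1. The call of Neurod1 held with either pair of controls, and the rest did not hold with both.

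**Figure D2:**
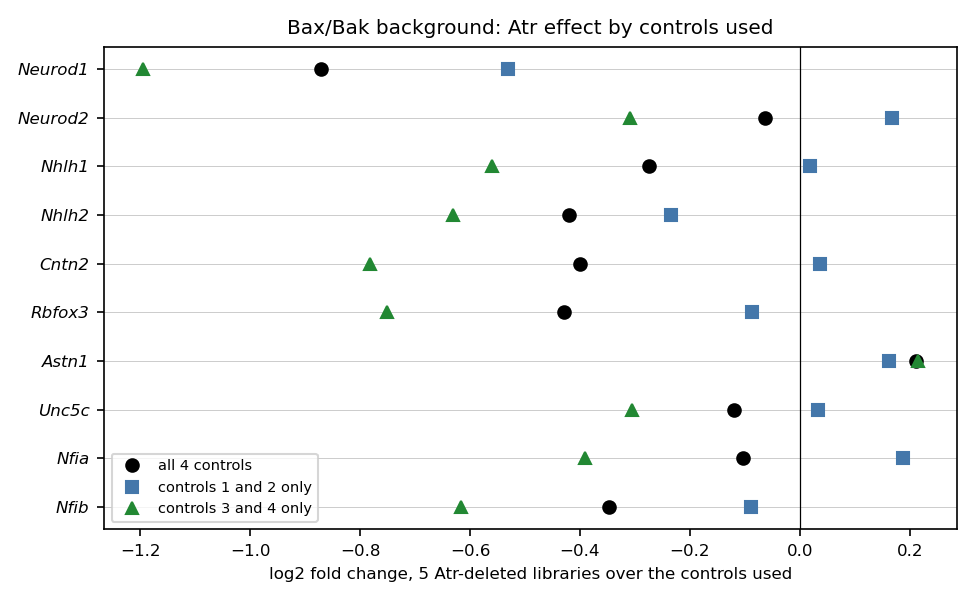
Log2 fold change (x axis) of the 10 genes (y axis) in the 5 Atr-deleted libraries of the Bax and Bak background against all 4 controls (circles), control replicates 1 and 2 only (squares) or 3 and 4 only (triangles), as fitted by edgeR. Neurod1 lies below 0 with each set of controls, from -1.20 to -0.53, while Cntn2 moves from -0.78 to 0.04.

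The second comparison asked the same in the p53 background, with 4 Atr-deleted libraries and 3 controls. Nhlh1, Cntn2, Unc5c and Nfib were lower in each Atr-deleted library than in each control, but no member passed the test. By edgeR 0 of 10 members were called, with 5 at an unadjusted p below 0.05, and DESeq2 and limma-voom called 0 as well. Of all 17348 genes 0.0461% were called and 6.58% were at an unadjusted p below 0.05. The 4 members without overlap stand against 4.62% of all genes that were lower without overlap. All 10 fitted log2 fold changes were below 0, with a median of -0.32 against 0.01 over all genes tested.

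Cntn2 was at 189, 268 and 285 CPM in the controls and 183, 135, 157 and 186 CPM in Atr-deleted replicates 1, 2, 4 and 5. The groups were separated narrowly, since control replicate 1 lay just above the highest Atr-deleted library. The log2 fold change was -0.57 ± 0.16 (SE, edgeR unadjusted p = 0.00591, adjusted p = 0.541). Nhlh1 was at 43.1, 50.8 and 51.2 CPM against 36.3, 22.4, 34.7 and 39.3 CPM with Atr deleted, where replicate 2 was the lowest of all 16 libraries. Its log2 fold change was -0.53 ± 0.18 (edgeR adjusted p = 0.617). Unc5c was at 264, 309.9 and 303 CPM against 208, 232, 249 and 231 CPM with Atr deleted (-0.34 ± 0.10, edgeR adjusted p = 0.541). Nfib was at 441, 543 and 558 CPM against 416, 271, 398 and 434 CPM with Atr deleted, again lowest in replicate 2 (-0.43 ± 0.17, edgeR adjusted p = 0.705).

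The groups of the other 6 genes overlapped. Neurod1 was at 219, 233 and 226 CPM in the controls and 163, 168, 243 and 159 CPM with Atr deleted, so that Atr-deleted replicate 4 was above all 3 controls and the other libraries were below them. Its log2 fold change was -0.29 ± 0.15 (edgeR adjusted p = 0.787), and -0.46 (0.189) without replicate 4. Nhlh2 was at 101, 96.5 and 100.5 CPM against 87.2, 87.2, 99.7 and 80.7 CPM (-0.15 ± 0.09). Rbfox3 was at 97.4, 134 and 139 CPM against 102, 74.5, 94.5 and 111 CPM (-0.36 ± 0.16), with control replicate 1 inside the Atr-deleted range. The same control was inside that range for Nfia, at 147, 185 and 182 CPM against 151, 92.1, 139 and 165 CPM with Atr deleted (-0.31 ± 0.18). Neurod2, at 140.1, 154 and 166 CPM against 138, 112, 140.5 and 149 CPM (-0.18 ± 0.11), and Astn1, at 187, 180.4 and 182 CPM against 179.5, 166, 180.1 and 189 CPM (-0.03 ± 0.08), overlapped as well. The edgeR adjusted p-values of these 6 genes were 0.753 to 0.952.

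Without Atr-deleted replicate 2, the library rich in mitochondrial RNA, the log2 fold changes were -0.49 for Cntn2, -0.38 for Nhlh1, -0.34 for Unc5c, -0.29 for Nfib and -0.16 for Nfia, with edgeR adjusted p-values of 0.354 to 0.742. Of the other genes, Neurod1 was at -0.25, Nhlh2 at -0.14, Rbfox3 at -0.26, Neurod2 at -0.10 and Astn1 at 0.01. Control replicate 1 shares the sample number series of the Atr-deleted libraries, and controls 2 and 3 belong to another. Within the shared series, 4 libraries against 1 gave -0.19 for Cntn2, -0.38 for Nhlh1, -0.19 for Unc5c and -0.21 for Nfib, where the lone control is assumed to vary like the Atr-deleted group. Against controls 2 and 3 the same genes were at -0.74, -0.61, -0.40 and -0.53. Rbfox3 was at -0.03 within the series and -0.51 across it. No member was called in either case.

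**Figure D3:**
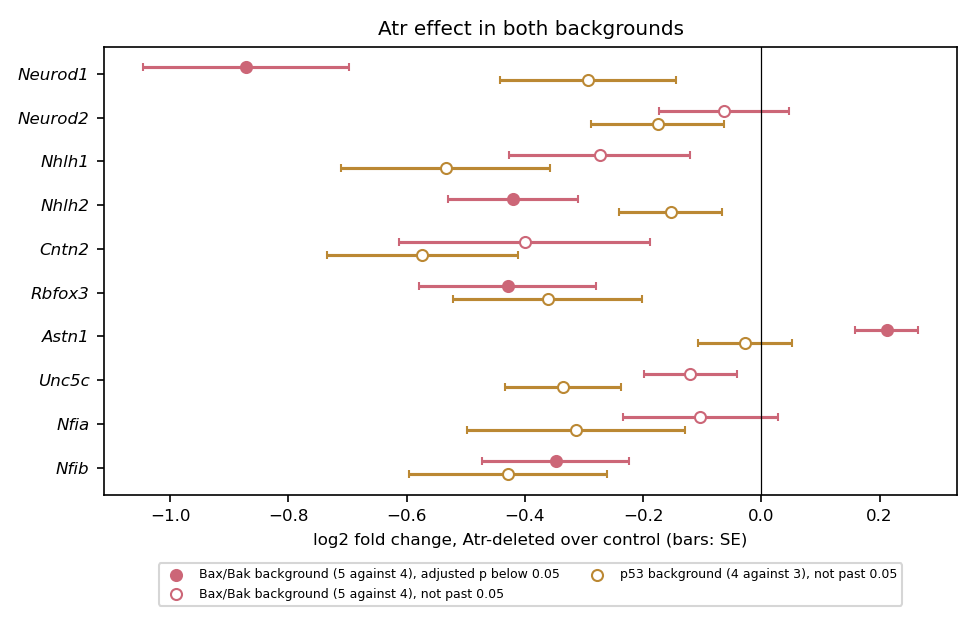
Log2 fold change of Atr-deleted over control libraries (x axis, bars show the SE) for the 10 genes (y axis) in the Bax and Bak background (5 against 4 libraries) and the p53 background (4 against 3). Filled points passed edgeR's test at an adjusted p of 0.05 and open points did not. All 10 points of the p53 background are open, and Astn1 without Bax and Bak, at 0.21, is the only point above 0.

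Whether the Atr effect differed between the backgrounds was tested as an interaction over the 16 libraries. The Atr effect on Neurod1 was larger without Bax and Bak by point estimate, and the difference, coded as the p53 effect minus the Bax and Bak effect, was 0.59 ± 0.25 on the log2 scale (SE, edgeR unadjusted p = 0.0306, adjusted p = 0.12). For Astn1 the difference was -0.23 ± 0.09 (edgeR unadjusted p = 0.0147, adjusted p = 0.0738). edgeR called 0 of 10 members, with 2 at an unadjusted p below 0.05, where 16.2% of all 18166 genes were called and 30.3% were at an unadjusted p below 0.05. DESeq2 called Astn1 alone (0.0479), as did edgeR with upper-quartile scaling (0.0494) and without Atr-deleted replicate 5 of the p53 group (edgeR adjusted p = 0.0484), and limma-voom called 0. The remaining differences were -0.25 for Nhlh1 to 0.27 for Nhlh2. Over all 16 libraries left out in turn, replicate 2 of the Atr-deleted p53 group included, the difference stayed between 0.42 and 0.73 for Neurod1 and between -0.26 and -0.17 for Astn1. These ranges do not cover the choice between the pairs of Bax and Bak controls. The Atr effect on Neurod1 there was -0.53 with controls 1 and 2 only and -1.20 with controls 3 and 4 only. In the p53 background it was -0.29, so the size of the difference depends on the controls used.

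Levels were set side by side across all 4 groups on a common scale. For Neurod1, Nhlh1, Nhlh2, Cntn2, Unc5c, Nfia and Nfib the group means fell in the order Bax and Bak controls, Bax and Bak Atr-deleted, p53 controls, p53 Atr-deleted. Rbfox3 had the middle pair of groups in the other order, Neurod2 was highest in the p53 controls, and Astn1 was highest with Atr deleted in the Bax and Bak background. Rbfox3 means were 155 ± 38.0 (SD, n = 4), 124 ± 22.8 (n = 3), 114 ± 10.4 (n = 5) and 95.5 ± 15.5 CPM (n = 4) from high to low, with overlap between neighbours. Neurod1 means were 504 ± 123, 272 ± 43.5, 226 ± 7.04 and 183 ± 39.9 CPM from high to low (SD), and of these neighbours only the first pair did not overlap.

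Between the controls, p53 against Bax and Bak, 5 of 10 members were lower by edgeR and 0 higher, where 18% of all genes were called in either direction and 8.71% lower, 9.3% higher. Nhlh2 stood at 99.3 ± 2.43 (SD, n = 3) against 171 ± 27.1 CPM (n = 4), a log2 difference of -0.79 ± 0.11 (with its SE; adjusted p by edgeR = 0.000396). For Neurod1 the difference was -1.16 ± 0.19 (edgeR adjusted p = 0.00111). Nhlh1 (-0.70, 0.018), Nfib (-0.52, 0.0375) and Nfia (-0.55, 0.0454) were the other 3 called. Cntn2 was at -0.66 (0.0502), and Rbfox3, Unc5c, Neurod2 and Astn1 lay between -0.33 and 0.08 without passing the test. With only replicates 1 and 2 as the Bax and Bak controls, a choice made after seeing the data, Neurod1 (-0.83, edgeR adjusted p = 0.0115) and Nhlh2 (-0.62, 0.00437) were the 2 members called, against 10.1% of all genes. With replicates 3 and 4 there were 8, against 14.1% of all genes. The calls of Nfib (edgeR adjusted p = 0.0605) and Nfia (0.0842) were also lost without the filter on low counts. With each of the 16 libraries left out in turn, the call of Nfib held 8 times and that of Nfia only 4 times. Both were lost without p53 control replicate 1, 2 or 3. The call of Nfia was lost with upper-quartile scaling (0.0554), limma-voom (0.0517) and the shallow library kept in (0.0724) too, and that of Nhlh1 without Bax and Bak control 3 or p53 control 1.

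Between the Atr-deleted groups, 8 of 10 members were lower in the p53 background and 0 higher, where 47.2% of all genes were called and 24.3% lower, 22.8% higher. Nhlh1 stood at 33.2 ± 7.43 (SD, n = 4) against 64.5 ± 8.93 CPM (n = 5), a log2 difference of -0.96 ± 0.17 (with its SE; adjusted p by edgeR = 0.000207). With each library left out in turn it was -1.05 to -0.81. The differences of Cntn2 (-0.83), Nfia (-0.75), Nfib (-0.59), Neurod1 (-0.57), Nhlh2 (-0.51), Unc5c (-0.39) and Astn1 (-0.28) were called too, and the same number of members was called with each of the 16 libraries left out. Rbfox3 (-0.26, edgeR adjusted p = 0.192) and Neurod2 (-0.02, 0.881) did not pass. By edgeR, 11 of 12 markers of astrocytes and Bergmann glia were also lower in the p53 background and 0 higher. Of 15 genes of later granule neurons 10 were lower and 2 higher, and all 20 genes of S phase and mitosis were higher. The part of these differences in those of the 10 genes was not tested. Both comparisons between backgrounds share their libraries with the Atr effects above, so their values are not independent of them. No sample number series spans both backgrounds, so background and series cannot be told apart in either comparison.

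Levels can be compared between genes only per length, here as CPM per kilobase of annotated transcript. On that scale in the Bax and Bak controls, Neurod1 was the highest at 185 ± 45.2 (SD, n = 4), followed by Nfib at 95.6 ± 18.1. Nhlh2, Rbfox3 and Cntn2 followed at 61.9 ± 9.88, 58.5 ± 14.4 and 58.4 ± 18.4, which did not differ beyond their SD. Neurod2 was at 46.1 ± 7.93, and Unc5c, Nfia, Nhlh1 and Astn1 were at 27.3 to 35.8. In the Atr-deleted p53 libraries Nhlh1 was the lowest, at 13.5 ± 3.02 CPM per kilobase (n = 4).

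Related genes of the same steps, from lists written with earlier results of these data known, moved as follows with Atr deletion in the Bax and Bak background. Of 22 bHLH partners, relatives and inhibitors, 9 rose, 8 fell and 5 did not pass edgeR's test. Those of smallest p were Hey1, a Notch target (-0.60 on the log2 scale), Neurod6, a further NeuroD gene (-0.49), the proneural gene Neurog2 (0.87) and the oligodendrocyte factor Olig2 (0.63). Of 23 transcription factors of the granule lineage, 12 fell and 3 rose, with a median of -0.20. Runx1t1 (-0.55), Insm1 (-0.97), Meis1 (-0.42) and Pax6 (-0.66), a factor kept through the granule lineage, had the smallest p and fell. Of 36 genes of migration, adhesion and guidance, 10 fell, 6 rose and 20 did not pass, with a median of 0.02. Plxnb2, a semaphorin receptor of granule cells (-0.59), and Dcx, a microtubule protein of migrating neurons (-0.62), fell, and the adhesion gene Ncam1 rose (0.41).

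On both sides of these genes in development, about as many progenitor genes fell as did not, and most later genes did not pass the test. Of 17 genes of granule progenitors and Sonic hedgehog signalling, 9 fell and 3 rose, with Sfrp1 (-1.13), Smo (-0.39), Insm1 and cyclin D2 (Ccnd2, -0.69) at the smallest p. Of 15 genes of later granule neurons, 2 fell, 1 rose and 12 did not pass. The fallers were Cadps2, of dense-core vesicle release (-1.29), and Cbln1, a synapse organiser (-0.40), and the NMDA receptor subunit gene Grin2c rose (1.06). All 20 genes of S phase and mitosis fell, with a median of -0.84, against -0.31 for the 10 early neuron genes. The background stands at 22% of all genes lower and 22.5% higher. In the p53 background edgeR called 0 genes of each of these 6 lists, with 17 of 127 at an unadjusted p below 0.05 against 6.58% of all genes, and calls by DESeq2 or limma-voom were not counted for these lists.

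Markers of several other cell types moved with Atr deletion in the Bax and Bak background, where 22.5% of all genes were called higher and 22% lower. Of 12 markers of astrocytes and Bergmann glia, cells that also make NFI factors, 11 rose and 0 fell by edgeR, and their summed level was 4798 to 6349 CPM in the Atr-deleted and 3352 to 3696 CPM in the control libraries. Of 10 oligodendrocyte lineage markers 8 rose and 1, Pdgfra, fell (1362 to 2848 against 805 to 1370 CPM). Of 8 markers of GABAergic interneurons 7 rose (652 to 820.5 against 469.5 to 586 CPM), and of 9 of Purkinje cells 7 rose (2698 to 3886 against 2204 to 2577 CPM), with 0 fallers in both lists. Of 9 microglial markers 7 rose (132 to 166 against 86.5 to 123 CPM). Of 8 endothelial and pericyte markers 2 rose, and of 5 tested markers of deep nuclei and unipolar brush cells 1, Tbr1, rose. Both of these shares lay near that of all genes. The summed level of the 10 early neuron genes was 2020 to 2595 CPM with Atr deleted and 2398 to 3526 CPM in the controls. Mitochondrially encoded RNA took 3.53 to 4.35% of the counts with Atr deleted and 1.81 to 2.55% in the controls. The part of these differences in the changes of the 10 genes was not tested.

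The control series also differed in some marker sums. Controls 1 and 2 had 2398 and 2521 CPM in the 10 genes together and controls 3 and 4 had 3526 and 3367 CPM. Their astrocyte and Bergmann glia sums were 3352, 3638, 3585 and 3696 CPM, and their sums over S phase and mitosis genes were 2560, 2728, 2800 and 2780 CPM. The sums of microglial markers were 123 and 109 CPM in controls 1 and 2 and 86.5 and 88.1 CPM in controls 3 and 4, the opposite order to that of the early neuron genes, and those of oligodendrocyte markers were 805 and 821 against 1370 and 1218 CPM. In the p53 background, Atr-deleted replicate 2 was the lowest of its group in the 10 genes together (1361 CPM against 1663 to 1743), in S phase and mitosis (1899 CPM against 2569 to 2771) and in the progenitor list (1354 CPM against 1792 to 1978).

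The deposited tables give counts per transcript, and the 10 genes had 63 transcripts in them, of which 50 were tested in the Bax and Bak background. Of the 16 that held at least 10% of their gene's counts there, 3 fell with Atr deletion by edgeR and 0 rose. Over all tested transcripts of these genes 8 fell, against 15.5% of all 52785 transcripts called in either direction. Transcripts were not fitted against each pair of controls alone. With controls 1 and 2 alone the gene-level calls of Nhlh2, Nfib and Rbfox3 were lost (edgeR adjusted p = 0.0851, 0.495 and 0.412), and that of Neurod1 held. Neurod1, Neurod2 and Nhlh1 each had 1 transcript. For Nhlh2, transcript Nhlh2-202 (2647 bases, 83.5% of the gene's counts) was at 102 ± 12.4 CPM (SD, n = 5) with Atr deleted against 148 ± 24.1 CPM (n = 4). In log2 fold change this is -0.59 ± 0.11 (with its SE; adjusted p by edgeR = 0.00716). It held 85.8% to 86.7% of the gene's counts in the controls and 79.2% to 82.0% with Atr deleted, ranges that did not overlap. The longer Nhlh2-201 (3761 bases) was at -0.24 and Nhlh2-203 at 0.31, neither past the test (both named after their values were seen, since each holds under 10% of the gene's counts), and all 3 are annotated with the same coding length of 405 bases.

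For Nfib, the main transcript Nfib-202 (8429 bases, 74.6% of counts) was at -0.37 ± 0.14 (edgeR adjusted p = 0.103). Nfib-201, which has the longer coding sequence (1710 against 1260 bases) and 16.3% of counts, fell by 0.64 (with an SE of 0.14, edgeR adjusted p = 0.0117), from 129 ± 16.1 to 86.1 ± 15.2 CPM. The minor Nfib-204 (1.49% of counts, -1.14, edgeR adjusted p = 0.000866), Nfib-205, Nfib-208 and Nfib-212, named for their calls, also fell. For Nfia, Nfia-202 (65.4% of counts) was at -0.28 and Nfia-201 (12.3%) at 0.34, neither past the test. Cntn2, Astn1 and Unc5c each had a transcript with 86.7% to 97.8% of counts, and none of these passed. Rbfox3 was divided among Rbfox3-203 (54.3%), Rbfox3-205 (27.7%) and Rbfox3-201 (10.3%), at -0.51, -0.30 and -0.30 without passing, and of its transcripts only the minor Rbfox3-204 (3.91%), named for its call, fell. In the p53 background 49 transcripts of these genes were tested and 0 were called, where 0.00942% of all transcripts were, with 12 at an unadjusted p below 0.05 against 5.46% of all transcripts. Estimated counts of transcripts depend on how shared reads were divided, and the error of that division is not in the files.

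**Figure D4:**
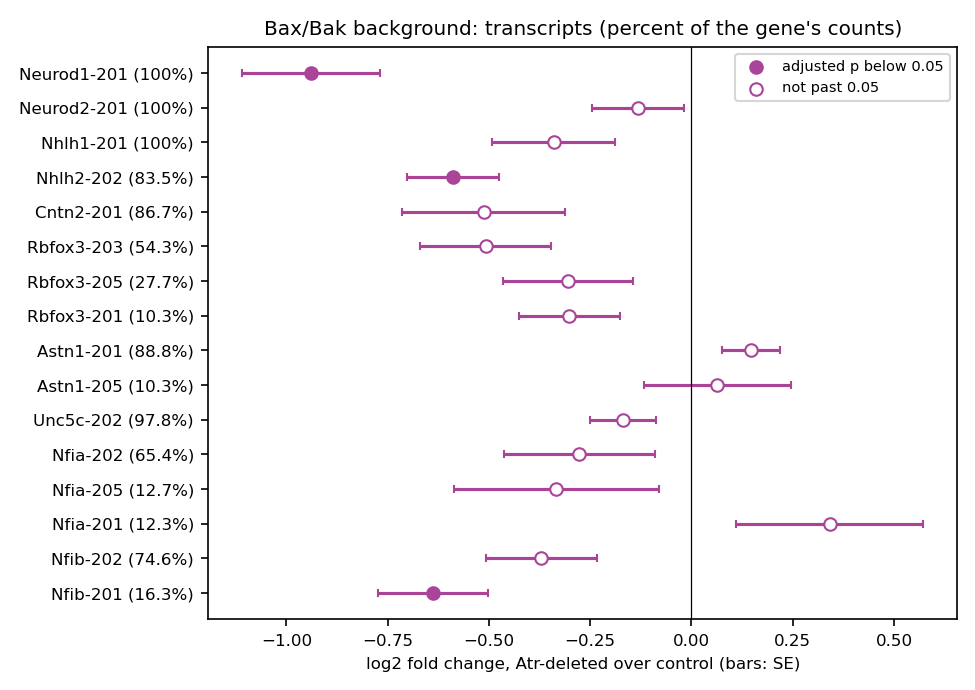
Log2 fold change of Atr-deleted over control libraries in the Bax and Bak background (x axis, bars show the SE) for the 16 transcripts that held at least 10% of their gene's counts (y axis, share in parentheses). Filled points passed edgeR's test over all transcripts. Neurod1-201, Nhlh2-202 and Nfib-201 are filled, at -0.94, -0.59 and -0.64.

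Within groups, most of the 10 genes rose and fell together from library to library. After the mean of its group was subtracted from each log2 CPM value (prior count of 2), the Pearson correlation over the 16 libraries was highest for Cntn2 with Rbfox3, at 0.96, and lowest for Astn1 with Unc5c, at -0.33. The median correlation of a gene with the other 9 was 0.89 for Neurod2, 0.89 for Nfib, 0.89 for Rbfox3 and 0.02 for Astn1. These values describe the 16 libraries, whose points share library scaling and the split between number series. Among the largest deviations were those of Bax and Bak controls 1 and 2 against 3 and 4 and of replicate 2 of the Atr-deleted p53 group. Among 13796 other genes with a symbol and a mean of at least 1 CPM, the 3 most like Neurod1 by this measure were Cdkn1b (0.96), Fbxo28 (0.95) and Kcnj3 (0.93). For Cntn2 they were Unc5b (0.97), Sez6 (0.97) and Myt1 (0.96).

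**Figure D5:**
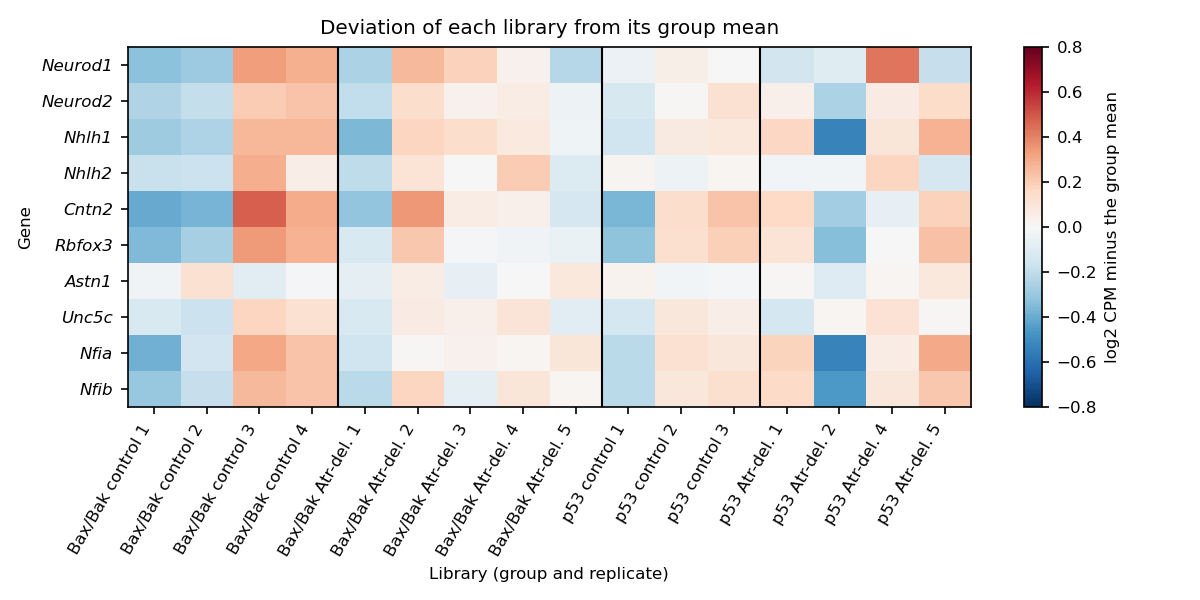
Deviation of log2 CPM from the group mean (colour, red above and blue below) for the 10 genes (y axis) in each of the 16 libraries (x axis), with lines between the groups. Bax and Bak controls 1 and 2 are below and 3 and 4 above their group's mean for every gene but Astn1, and replicate 2 of the Atr-deleted p53 group is below its mean most for Nhlh1, Nfia and Nfib.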

How the data were processed

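RNA sequencing of 17 cerebellar libraries from 4 genotype groups was analysed from the estimated counts per transcript that the authors deposited, with 2 lane columns per library. The submitters' processing notes name the builds mm9 and GRCm38, kallisto 0.42.4 and edgeR, with no role for each. The strand setting is not given in the sources used here. Lanes were added, and transcripts were summed to 31438 genes with GENCODE M21 (GRCm38). Of 94080 transcripts 92284 matched, and 0.779% to 1.04% of counts in the 16 deep libraries did not. Sums were rounded to whole numbers. At these depths 1 count was at most 0.0233 CPM.

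Each Atr effect was fitted on its own background, and the interaction and both comparisons between backgrounds on all 16 libraries, with edgeR 4.0.16 in R 4.3.3 (TMM scaling, filterByExpr, robust quasi-likelihood F-test, Benjamini-Hochberg over all features, threshold 0.05). SE is the log2 fold change over the root of F. Printed CPM share 1 TMM scaling over the 16 libraries. Alternatives were other scalings and filters, DESeq2 1.42.0, limma-voom (limma 3.58.1), a threshold of 0.01, a fit over all libraries, the shallow library kept in, each control series alone and each library left out. For transcripts only median-of-ratios scaling, a mean of at least 1 CPM, the threshold of 0.01 and each library left out were used. The scripts were tested on simulated data. There, 78% of 1.5-fold changes were recovered in the Bax and Bak background, 34% in the p53 background and 37% for the interaction. For 3-fold changes these shares were 97%, 100% and 99%. An absent call in the p53 background or the interaction therefore does not show that a gene was unchanged. Upstream sequences are from RefSeq (GRCm38.p6), matched by symbol for 9 of 10 genes (all but Nfib).

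The 10 genes and all gene lists were chosen with earlier results of these data known. Named are the 10 genes, their transcripts with at least 10% of the gene's counts, up to 4 genes of smallest p per list in the Bax and Bak background, and the 3 genes most like Neurod1 and Cntn2; those most like Nfia, which the rule also asks for, are not reported here. Replicates were numbered in accession order.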

Additional observations from a re-analysis of the deposited data

Results flagged for a closer look

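Neurod1 in replicate 4 of the Atr-deleted p53 group, at 242.8 CPM, stood apart from the other 3 libraries of its group: its gap to the nearest of them was 0.886 of the group's range. It was the only one so placed among the 30 sets of values checked, where chance alone marks about 1 in 20. Without this library the log2 fold change of Neurod1 in the p53 background was -0.46 (edgeR adjusted p = 0.189), against -0.29 (0.787) with it.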

How the results depend on the processing

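No paired analysis was possible because the labels give no replicate numbers that groups share. Of the 190 alternative values for single genes in the Bax and Bak background 155 kept direction and side of the threshold, 21 lost and 6 gained a call and 8 changed sign; in the p53 background 179 of 180 kept both, and for the difference between the Atr effects 238 of 260. Members called in the Bax and Bak background numbered 5, but 4 without the filter on low counts, 2 at a threshold of 0.01, 1 with controls 1 and 2 only, 10 with controls 3 and 4 only and 3 to 6 with a library left out. For the difference between the effects, 0 became 1 with upper-quartile scaling or DESeq2, 2 with Bax and Bak controls 3 and 4 only (a choice made after seeing the data), and 0 to 1 with a library left out. Between the controls, 5 became 3 without the filter, 2 at 0.01, 2 with controls 1 and 2 only, 8 with 3 and 4 only, and 2 to 6 with a library left out; between the Atr-deleted groups 8 were called each time. Transcripts called were 3 at 0.01 and 5 to 14 with a library left out. Signs reversed with controls 1 and 2 only for Nfia (0.19), Neurod2 (0.17), Nhlh1 (0.018), Cntn2 (0.037) and Unc5c (0.033), and for Rbfox3 in the difference between effects (-0.23). With controls 3 and 4 only that difference reversed for Nfib (0.20), Nfia (0.088), Neurod2 (0.14), Nhlh1 (0.035) and Cntn2 (0.22), as did Neurod2 between controls (-0.15). Neurod2 between the Atr-deleted groups was at 0.015 without the filter. With a library left out, signs changed within -0.26 to 0.00033 for Nfia and -0.18 to 0.017 for Neurod2 in the Bax and Bak background, and -0.059 to 0.0085 for Astn1 in the p53 background. For the difference the ranges were -0.17 to 0.067 (Nfib), -0.070 to 0.23 (Rbfox3), -0.18 to 0.018 (Neurod2) and -0.33 to 0.0048 (Cntn2), and for Neurod2 -0.016 to 0.16 between controls and -0.072 to 0.055 between Atr-deleted groups. The cause of these changes was not tested.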
